A study of Homo sapiens with 15 samples.

Results

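The 8 genes described here form the core of the Hedgehog and GLI pathway. PTCH1, GAS1, HHIP, SMO, SUFU, GLI1, GLI2 and GLI3 were listed by gene symbol from a table of 37787 genes. Earlier results of these data were known when they were chosen. All 8 were in the table, and all 8 passed the filter on low counts that left 13868 genes for testing. RNA was measured by sequencing in 15 libraries of HGrC1, an immortalised, non-luteinized human granulosa cell line in which both FOXL2 alleles are normal. There were 5 conditions with 3 replicates each. Vectors received empty plasmids. FOXL2WT received SMAD3 with wild-type FOXL2, the forkhead factor of granulosa cells, and FOXL2C134W received SMAD3 with the mutant form of FOXL2 that marks adult granulosa cell tumors. FOXL2WT+FOXO1 and FOXL2C134W+FOXO1 received in addition Foxo13A, a constitutively active nuclear form of FOXO1. SMAD3 was thus in every condition but Vectors, so an effect of FOXL2 and one of SMAD3 cannot be told apart in any comparison with Vectors. Lipofection lasted 4 h and was followed by 24 h without serum. All cells kept their own FOXL2, and all came from 1 cell line.

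Hedgehog signalling works by relief of repression. Without ligand, the membrane receptor PTCH1 keeps SMO silent, and the GLI transcription factors are held back by SUFU or cut into repressors. When a Hedgehog ligand binds PTCH1, SMO moves into the primary cilium and full-length GLI2 and GLI3 are freed to activate transcription. GLI1, PTCH1 and HHIP are classical target genes, so their RNA is widely read as output of the pathway. In the ovary, granulosa cells are known as a source of Hedgehog ligands and the surrounding theca cells as the main responders.

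The libraries held 14962245 to 25339094 counts. For 1 gene between libraries, the unit is CPM, its count per 1000000 counts of the library after TMM scaling, which evens out differences in composition. Fold changes are on the log2 scale with their standard error (SE), from edgeR's quasi-likelihood test on all 15 libraries, and adjusted p-values are Benjamini-Hochberg values over the 13868 genes. A gene was called a differentially expressed gene (DEG) at an adjusted p under 0.05. The labels do not say that replicates were separate cultures, so the p-values measure the spread between these samples, which may be technical. In RNA from whole cultures, fewer expressing cells and less RNA per cell cannot be told apart.

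The transfected genes were checked first. FOXL2 was at 8.73 ± 0.705 CPM (SD, n = 3) in Vectors, 561 ± 5.90 in FOXL2WT, 147 ± 27.0 in FOXL2C134W, 384 ± 14.97 in FOXL2WT+FOXO1 and 152 ± 20.1 in FOXL2C134W+FOXO1. SMAD3 was at 249 ± 11.99, 2768 ± 154, 843 ± 37.4, 969 ± 10.8 and 392 ± 16.9 CPM in the same order. FOXO1 was at 117 ± 14.5 CPM in FOXL2WT+FOXO1, at 43.2 ± 4.06 in FOXL2C134W+FOXO1 and between 11.99 and 13.2 on average elsewhere. In every library the presence of RNA from each transfected gene thus went with the label. Counts per gene do not tell wild-type from mutant FOXL2, so that part of the labels was not checked. FOXL2 and SMAD3 RNA was lower in FOXL2C134W than in FOXL2WT. SMAD3 RNA was also lower in each FOXO1 condition than in the same form of FOXL2 without it. The form of FOXL2 and the amount of these RNAs cannot be told apart in the results below. The study reported balanced protein of both FOXL2 forms and of FOXO1 by immunoblot of parallel cultures. Protein was not examined here. Of 12 granulosa markers, 11 exceeded 3 counts in at least 1 library. The exception was FSHR, the receptor of follicle-stimulating hormone, at 0 in all 15. CYP19A1, the aromatase that makes estrogen, had 0 to 4 counts. INHA and WNT4 also had 0 to 4 counts and AMHR2 had 0 to 7. Like CYP19A1 and FSHR, none of them passed the filter. Without FOXL2 the granulosa markers summed to 19.5 to 25.4 CPM in every condition. The 5 epithelium markers summed to 4228 to 4776 CPM over the conditions, nearly all of it KRT8 and KRT18, with MUC16 at 0 in all 15.

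The 8 genes lie on 6 chromosomes of GRCh38, and each is protein coding. GLI2 spans chr2:120735623-120992653 and HHIP spans chr4:144646156-144745271. GLI3 spans chr7:41960949-42264100, on the minus strand, and SMO spans chr7:129188633-129213545. GAS1 spans chr9:86944362-86947506 and PTCH1 spans chr9:95442980-95517057, both on the minus strand. SUFU spans chr10:102503972-102633535 and GLI1 spans chr12:57459785-57472268.

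Start-site windows of RefSeq (build GRCh38.p14, the 250 bases before each annotated start) matched 6 of the 8 genes, with 11 windows in all. GLI1 and GLI3 were not matched. The windows were searched on both strands for GACCACCCA, the site that GLI factors bind, for its shorter core CCACCCA, which lies within it, for the forkhead site GTAAACA and for the SMAD element CAGAC. GACCACCCA was in 0.199% of all 35116 windows, CCACCCA in 8.17%, GTAAACA in 2.98% and CAGAC in 38.0%. Among the 11 windows, 1 held GACCACCCA, 2 held CCACCCA, 1 held GTAAACA and 6 held CAGAC. Shown are the windows with a GLI or forkhead match, since GLI factors are members and FOXL2 and FOXO1 are forkhead proteins. Capitals mark the matches, on either strand, and bases in an annotated GLI2 exon were left off. Both PTCH1 windows lie within the gene and outside its annotated exons. The first holds the GLI site, starting 172 bases before the start. The second lies before a more downstream PTCH1 start and holds GTAAACA on both strands, 85 and 26 bases before the start, with a CAGAC match between them. The third lies before a GLI2 start and holds the core only.
PTCH1, chr9:95509267-95509516, minus strand: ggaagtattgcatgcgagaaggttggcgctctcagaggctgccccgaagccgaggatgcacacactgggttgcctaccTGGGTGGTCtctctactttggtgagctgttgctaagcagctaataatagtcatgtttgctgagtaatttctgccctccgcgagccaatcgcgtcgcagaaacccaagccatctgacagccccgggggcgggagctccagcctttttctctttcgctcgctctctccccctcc
PTCH1, chr9:95507428-95507677, minus strand: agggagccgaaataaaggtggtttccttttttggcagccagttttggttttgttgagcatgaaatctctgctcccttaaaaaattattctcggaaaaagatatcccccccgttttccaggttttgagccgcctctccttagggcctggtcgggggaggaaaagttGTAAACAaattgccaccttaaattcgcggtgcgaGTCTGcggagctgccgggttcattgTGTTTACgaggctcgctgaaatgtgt
GLI2, chr2:120735682-120735867, plus strand: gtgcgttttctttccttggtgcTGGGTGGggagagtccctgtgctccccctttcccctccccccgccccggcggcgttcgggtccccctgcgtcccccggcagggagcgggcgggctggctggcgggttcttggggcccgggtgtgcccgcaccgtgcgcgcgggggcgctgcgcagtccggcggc
A match describes letters in a window and not binding. The RNA levels of both genes follow.

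How much of each gene the cells made was compared per length, as CPM per kilobase of the longest coding transcript. HHIP, the membrane-anchored decoy that binds Hedgehog ligands, was the highest with a median of 12.3 CPM per kilobase over 15 libraries and a range of 10.8 to 14.2. SUFU, the cytoplasmic inhibitor of GLI factors, followed at 3.68, GLI2 at 2.77, the transducer SMO at 2.14 and GLI3 at 1.5. PTCH1 was at 0.589. GLI1, the GLI factor that acts only as an activator, was at 0.209, and GAS1, a co-receptor that helps ligand reach PTCH1, was at 0.164. The HHIP range did not overlap that of any other member. The order of SUFU and GLI2 depended on the length used. In TPM, which salmon scales by the length of each transcript, the median was 9.32 for GLI2 and 4.86 for SUFU. HHIP was again the highest, at 52.75. GLI1 rested on 11 to 29 counts per library and GAS1 on 2 to 15, so small differences in these 2 genes were not detectable at this depth. The ligands themselves were close to absent: SHH had 0 to 2 counts, IHH 0 to 6 and DHH 0 to 7, and none passed the filter.

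**Figure D1:**
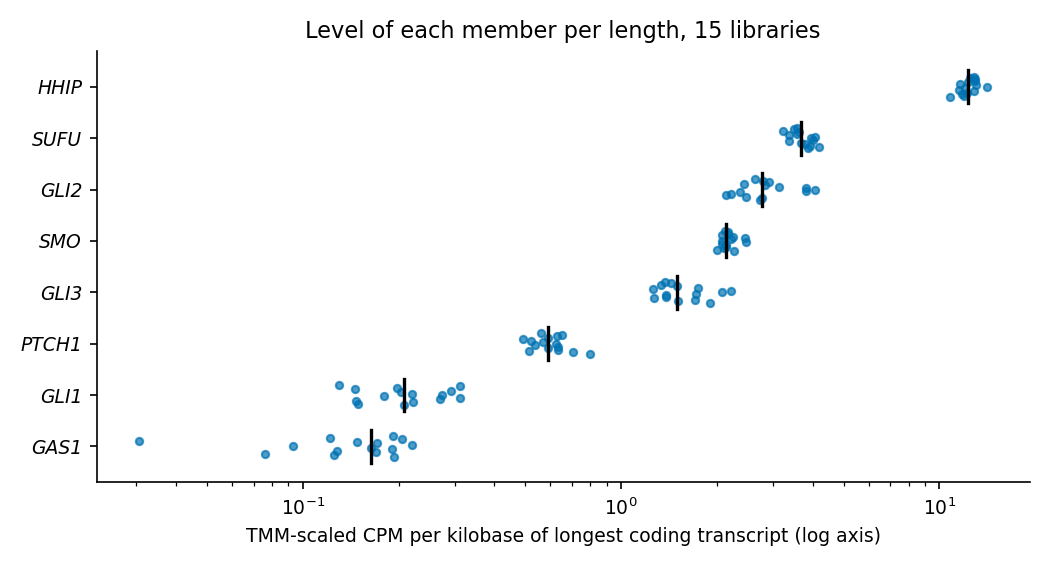
Level of the 8 members in TMM-scaled CPM per kilobase of the longest coding transcript, on a log axis. Each point is 1 of 15 libraries and the bar is the median. HHIP lies apart at 10.8 to 14.2, and GLI1 and GAS1 lie lowest with medians of 0.209 and 0.164.

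GLI2 and GLI3 differed between the forms of FOXL2, and the other 6 members did not pass the test. GLI2 is the main activator among the GLI factors. Its level was 14.5, 15.1 and 16.1 CPM in the FOXL2WT libraries and 25.9, 27.6 and 25.9 CPM in the FOXL2C134W libraries. The conditions did not overlap, and the lowest mutant library was above the highest wild-type library. Such a lack of overlap was seen in 3 of 8 members and in 30.4% of all tested genes. GLI2 was 1.73-fold higher in FOXL2C134W (log2 fold change 0.79, SE 0.08, adjusted p = 1.5e-05 in edgeR) and stood 20th of 13868 genes by p. GLI3, the member known above all as a repressor, was at 10.7, 11.6 and 11.6 CPM in FOXL2WT and at 14.4, 17.4 and 18.6 CPM in FOXL2C134W. These libraries also did not overlap. GLI3 was 1.48-fold higher in FOXL2C134W (log2 fold change 0.57, SE 0.11, adjusted p = 0.0035 in edgeR).

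That made 2 of 8 members DEGs, both higher, where 11.2% of all tested genes were DEGs in FOXL2C134W vs FOXL2WT. The median log2 fold change was 0.10 over the 8 members and -0.01 over all tested genes. Both calls held whichever of the 6 libraries compared was removed, with 0.76 to 0.84 for GLI2 and 0.49 to 0.68 for GLI3. GLI3 missed the threshold in 1 of 10 other settings, DESeq2 with transcript length offsets (log2 fold change 0.48, adjusted p = 0.14).

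**Figure D2:**
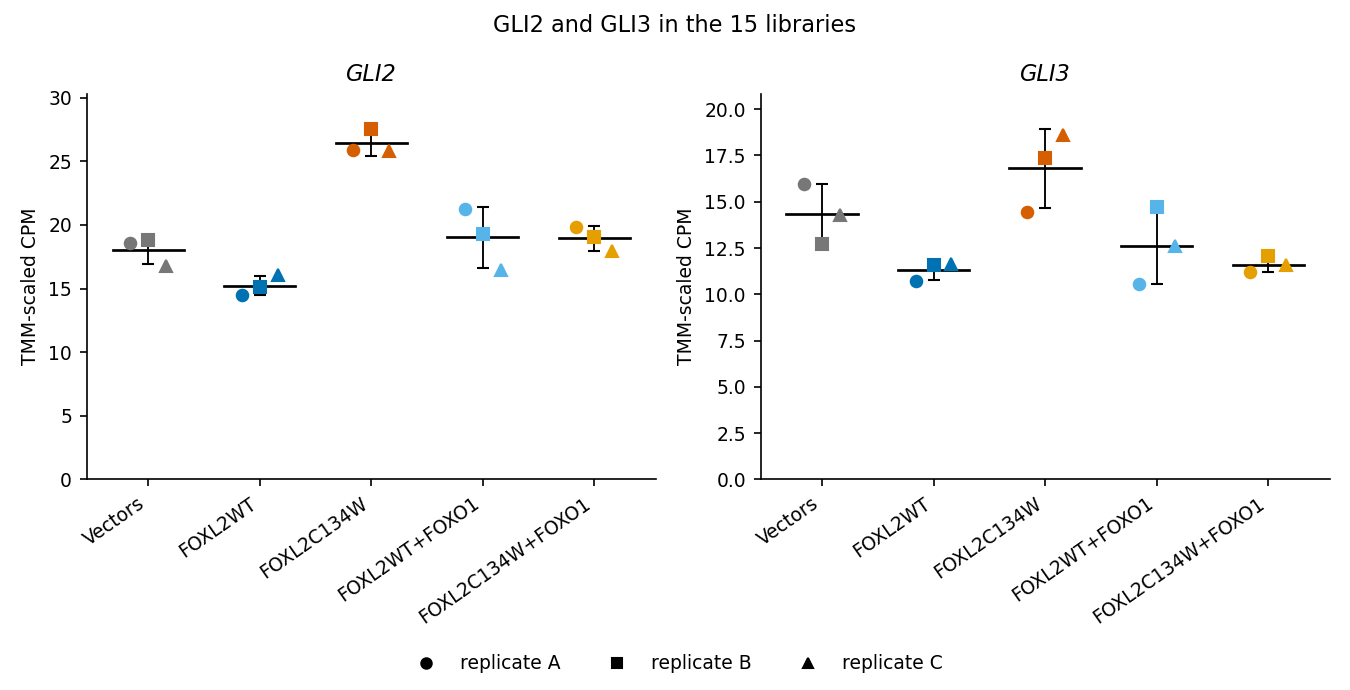
TMM-scaled CPM of GLI2 and GLI3 in each library of the 5 conditions. Marker shapes are replicates, the bar is the mean and the whiskers are 1 SD (n = 3). The 3 FOXL2C134W libraries are the highest for GLI2, at 25.9 to 27.6 CPM, and do not overlap any other condition. For GLI3 they overlap Vectors and FOXL2WT+FOXO1.

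Long genes moved in the same direction as GLI2 and GLI3 in this comparison. Across all tested genes, which are not independent replicates, the log2 fold change of FOXL2C134W vs FOXL2WT correlated with gene length (Spearman's rho 0.36). The median log2 fold change was 0.13 in the longest decile of genes and -0.01 in all. Length was the mean over the transcripts of a gene, weighted by TPM. GLI3 was at the 94.1 percentile of it (5763.4 bases) and GLI2 at 64.7 (2701.8 bases). The GLI2 value is lowered by a transcript of 315 bases with at most 9.6 estimated reads in a library. Most GLI2 reads lay on transcripts of 6799 and 6768 bases, so the percentile does not set GLI2 apart from long genes. With a gene length offset in the fit, GLI2 kept a log2 fold change of 0.77 (adjusted p = 1e-05 in edgeR) and GLI3 one of 0.44 (adjusted p = 0.005 in edgeR). That offset used the same lengths, so for GLI2 it may correct too little.

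The remaining members gave small or uncertain differences between FOXL2C134W and FOXL2WT. PTCH1 had 5.48, 5.10 and 5.47 CPM in FOXL2WT and 4.63, 5.39 and 4.93 in FOXL2C134W, with a log2 fold change of -0.11 (SE 0.14, adjusted p = 0.69 in edgeR, 95% interval -0.39 to 0.17). Its libraries overlapped, so the receptor gene with the GLI site printed above did not differ beyond the spread. GLI1 had 0.586, 1.07 and 1.24 CPM against 0.712, 1.09 and 0.876, a log2 fold change of -0.13 (SE 0.37, adjusted p = 0.87 in edgeR, 95% interval -0.85 to 0.59). HHIP had 121, 128 and 114 CPM against 119, 141 and 129, a log2 fold change of 0.10 (SE 0.06, adjusted p = 0.30 in edgeR, 95% interval -0.015 to 0.22). These 3 genes are the classical targets among the members, and none was a DEG here. The interval for GLI1 was wide, as its counts were low.

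SMO had 8.47, 8.52 and 8.25 CPM in FOXL2WT and 9.81, 8.27 and 8.80 in FOXL2C134W, with a log2 fold change of 0.09 (SE 0.09, adjusted p = 0.57 in edgeR). SUFU had 18.9, 18.4 and 16.9 CPM against 20.1, 19.8 and 20.4, with a log2 fold change of 0.16 (SE 0.07, adjusted p = 0.15 in edgeR). The SUFU libraries did not overlap, and its unadjusted p was 0.034, but it was not a DEG. By p it stood 3047th among all tested genes. GAS1 had 0.532, 0.403 and 0.598 CPM against 0.514, 0.293 and 0.691, with a log2 fold change of -0.07 (SE 0.48, adjusted p = 0.95 in edgeR). The sign for GLI1 and for GAS1 depended on single libraries: it turned for both without FOXL2WT replicate C (0.14 and 0.07), for GLI1 also without FOXL2C134W replicate A (0.02) and for GAS1 without FOXL2C134W replicate B (0.21).

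**Figure D3:**
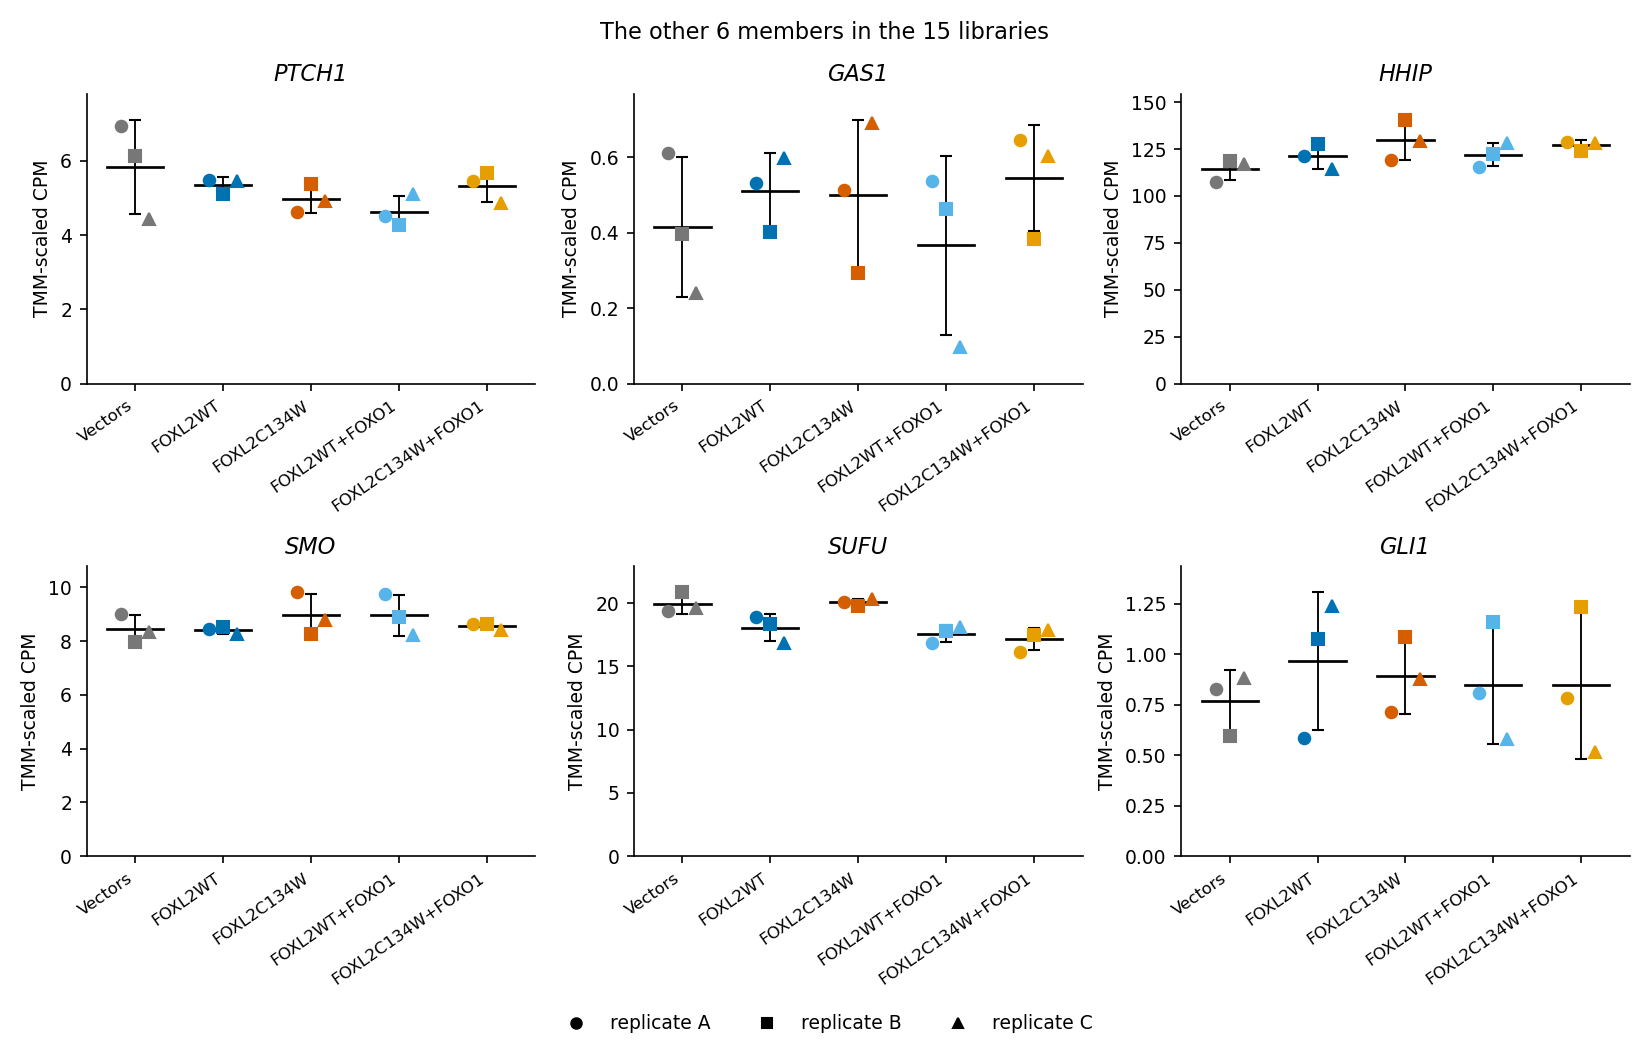
TMM-scaled CPM of the 6 members other than GLI2 and GLI3 in each library. Marker shapes are replicates, the bar is the mean and the whiskers are 1 SD (n = 3). HHIP in Vectors, at 107 to 119 CPM, lies just below FOXL2C134W at 119 to 141, and GLI1 and GAS1 spread widely within conditions.

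Against Vectors, the members moved little with wild-type FOXL2. GLI2 was at 18.6, 18.8 and 16.8 CPM in Vectors and GLI3 at 15.96, 12.7 and 14.3. In both genes all Vectors libraries were above all FOXL2WT libraries. Here 3 of 8 members did not overlap, beside 31.1% of all tested genes. The log2 fold change of FOXL2WT vs Vectors was -0.24 for GLI2 (SE 0.09, adjusted p = 0.11 in edgeR) and -0.34 for GLI3 (SE 0.12, adjusted p = 0.092 in edgeR). By edgeR's test, 0 of 8 members were DEGs, where 6.07% of all genes were. At an unadjusted p under 0.05 there were 3 members, GLI2, GLI3 and SUFU, and DESeq2 called 0. SUFU, the last of the 3 by p, stood only 2789th among all tested genes. Many genes other than the members thus also passed that unadjusted threshold. GLI3 passed the threshold in 2 of 10 other settings, a looser count filter (adjusted p = 0.018) and a fit of only the 2 conditions compared (adjusted p = 0.027).

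In FOXL2C134W vs Vectors, 2 of 8 members were DEGs, both higher, where 14.7% of all genes were. GLI2 had a log2 fold change of 0.55 (SE 0.08, adjusted p = 0.00016 in edgeR), with all FOXL2C134W libraries above all Vectors libraries, and lost its call only with transcript length offsets (log2 fold change 0.44, adjusted p = 0.56). HHIP was at 107, 119 and 117 CPM in Vectors and had a log2 fold change of 0.18 (SE 0.06, adjusted p = 0.047 in edgeR). The highest Vectors library and the lowest FOXL2C134W library of HHIP were nearly equal, at 118.8 and 119.4 CPM. Libraries did not overlap in 2 of 8 members, beside 31.8% of all tested genes. The HHIP call was lost in 5 of the 6 fits that left out a library (any Vectors library, or FOXL2C134W replicate B or C, with log2 fold changes of 0.12 to 0.21 and adjusted p of 0.063 to 0.23). GLI3 had a log2 fold change of 0.23 (SE 0.11, adjusted p = 0.19 in edgeR), with libraries that overlapped.

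The study added FOXO1 to ask whether it counters the mutant. In FOXL2C134W+FOXO1, GLI2 was at 19.9, 19.0 and 17.9 CPM and GLI3 at 11.2, 12.1 and 11.6 CPM. All 3 libraries were below all FOXL2C134W libraries in both genes. A lack of overlap was seen in 3 of 8 members and in 14.0% of all tested genes. GLI2 fell by 0.48 on the log2 scale (SE 0.08, adjusted p = 0.013 in edgeR), to 0.716 of its level, and stood 12th of 13868 genes by p. GLI3 fell by 0.53 (SE 0.11, adjusted p = 0.032 in edgeR), to 0.692 of its level. That made 2 of 8 members DEGs, both lower, where 0.714% of all genes were DEGs in FOXL2C134W+FOXO1 vs FOXL2C134W. The FOXL2C134W libraries also enter the comparison with FOXL2WT, so the 2 results are not independent of each other. Both calls rested on single libraries. GLI2 missed the threshold without FOXL2C134W replicate B (adjusted p = 0.081), without FOXL2C134W replicate C (0.062) or without FOXL2C134W+FOXO1 replicate C (0.079). GLI3 missed it without any of these (0.14, 0.19 and 0.10) and without FOXL2C134W+FOXO1 replicate A (0.22). Over the 6 fits that left out a library, the log2 fold change was -0.52 to -0.45 for GLI2 and -0.64 to -0.45 for GLI3. The count over all genes moved as well, from 99 DEGs to 5 without any of the first 3 libraries named, 11 without FOXL2C134W+FOXO1 replicate A, 231 without FOXL2C134W+FOXO1 replicate B and 355 without FOXL2C134W replicate A.

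SUFU, at 16.2, 17.5 and 17.9 CPM with FOXO1, lay below its FOXL2C134W libraries without overlap, with a log2 fold change of -0.22 (SE 0.07, adjusted p = 0.14 in edgeR). It was not a DEG. PTCH1 was at 5.45, 5.67 and 4.86 CPM, HHIP at 129, 124 and 128 and SMO at 8.63, 8.65 and 8.43. GLI1 was at 0.785, 1.24 and 0.516 CPM and GAS1 at 0.646, 0.383 and 0.602. The libraries of these 5 genes overlapped those without FOXO1, and their log2 fold changes lay between -0.07 and 0.13.

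Beside wild-type FOXL2, FOXO1 went with no such fall. GLI2 was at 21.3, 19.3 and 16.5 CPM in FOXL2WT+FOXO1, above all FOXL2WT libraries, with a log2 fold change of 0.31 (SE 0.09, adjusted p = 0.27 in edgeR). Of the members, 2 of 8 did not overlap, beside 14.5% of all tested genes. GLI3 was at 10.6, 14.7 and 12.6 CPM, overlapping FOXL2WT, with a log2 fold change of 0.17 (SE 0.12, adjusted p = 0.70 in edgeR). In this comparison edgeR called 0 of 8 members, where 0.0505% of all genes were DEGs. At an unadjusted p under 0.05 there was 1 member, GLI2, which stood 122nd among all tested genes by p. DESeq2 called 0, and DESeq2 with transcript length offsets called GLI2 (log2 fold change 1.37, adjusted p = 0.040).

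The difference between the 2 effects of FOXO1 was tested itself. This test uses the same libraries as the comparisons above, FOXL2C134W vs FOXL2WT among them, so it is not independent of them. The effect in FOXL2C134W minus that in FOXL2WT was -0.79 for GLI2 (SE 0.12, adjusted p = 0.0053 in edgeR) and -0.70 for GLI3 (SE 0.16, adjusted p = 0.041 in edgeR). These 2 of 8 members were DEGs where 1.38% of all genes were, and GLI2 stood 8th of 13868 genes by p. The GLI2 call held in all 12 fits that left out a library, with -0.89 to -0.72. The GLI3 call was lost in 9 of those 12 (log2 values of -0.73 to -0.57, adjusted p of 0.067 to 0.14). It held only without FOXL2C134W replicate A, without FOXL2WT+FOXO1 replicate A and without FOXL2C134W+FOXO1 replicate B. The value for PTCH1 was 0.31 (SE 0.20, adjusted p = 0.59 in edgeR), of the opposite sign and not a DEG.

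**Figure D4:**
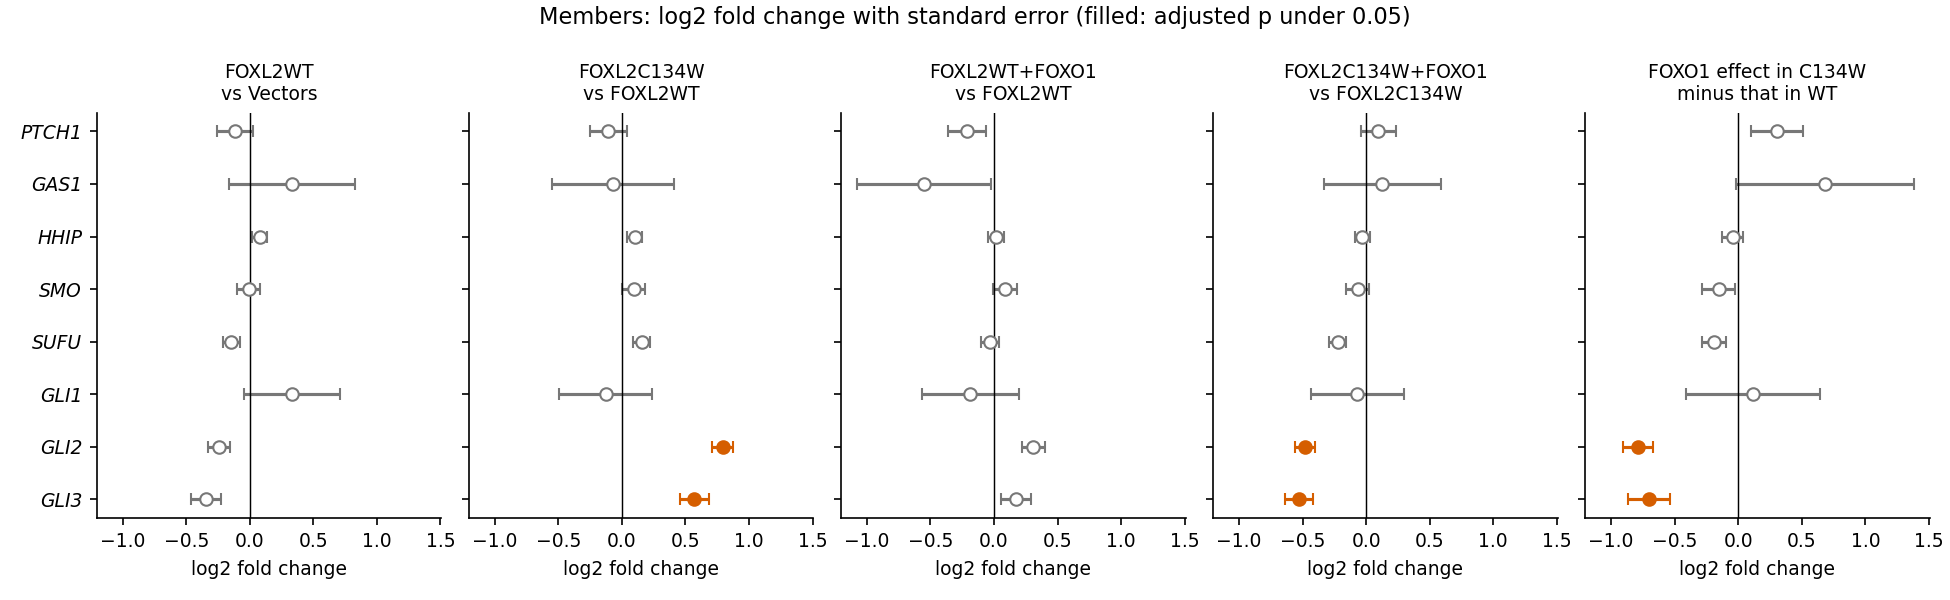
Log2 fold change of the 8 members in 4 comparisons, and in the last panel the difference between the effects of FOXO1 in FOXL2C134W and in FOXL2WT. Whiskers are 1 SE, and filled points are DEGs at an adjusted p under 0.05. GLI2 and GLI3 are filled on the right of 0 in FOXL2C134W vs FOXL2WT (0.79 and 0.57) and on the left in FOXL2C134W+FOXO1 vs FOXL2C134W (-0.48 and -0.53).

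With FOXO1 present in both, the forms of FOXL2 gave no DEG among the members. The log2 fold change of FOXL2C134W+FOXO1 vs FOXL2WT+FOXO1 was 0.00 for GLI2 (95% interval -0.16 to 0.17) and -0.13 for GLI3 (95% interval -0.36 to 0.10). By edgeR 0 of 8 members passed the test, 0 had an unadjusted p under 0.05 and DESeq2 called 0, where 0.144% of all genes were DEGs. For GLI2 the interval leaves out the 0.79 seen without FOXO1. In FOXL2C134W vs FOXL2WT+FOXO1, GLI2 alone was a DEG (log2 fold change 0.48, SE 0.08, adjusted p = 0.0043 in edgeR), 1 of 8 where 3.87% of all genes were, and DESeq2 called GLI3 as well.

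The doubly transfected cells were also set against FOXL2WT and Vectors. In FOXL2C134W+FOXO1 vs FOXL2WT, edgeR called 0 of 8 members where 1.69% of all genes were DEGs. GLI2 alone had an unadjusted p under 0.05 (log2 fold change 0.31, SE 0.09, adjusted p = 0.07 in edgeR), and DESeq2 called it (adjusted p = 0.031). By p in edgeR, GLI2 stood 405th among all tested genes. In FOXL2WT+FOXO1 vs Vectors, edgeR called 0 of 8 where 3.78% of all genes were DEGs, and DESeq2 called 0. At an unadjusted p under 0.05 there were 2 members, PTCH1 and SUFU, at ranks 2003 and 1389 among all tested genes. In FOXL2C134W+FOXO1 vs Vectors, edgeR called 0 of 8 where 9.33% of all genes were DEGs, and DESeq2 called 0. Here 3 members, GLI3, HHIP and SUFU, had an unadjusted p under 0.05. Their ranks by p among all tested genes were 2042, 2261 and 1332. PTCH1 was at 6.93, 6.13 and 4.44 CPM in Vectors and 4.51, 4.27 and 5.10 in FOXL2WT+FOXO1, so the widest spread of the receptor gene was within Vectors, and without Vectors replicate C it became a DEG (log2 fold change -0.50, adjusted p = 0.049 in edgeR). SUFU was at 19.4, 20.9 and 19.6 CPM in Vectors and 16.8, 17.8 and 18.1 in FOXL2WT+FOXO1, without overlap. It was the 1 of 8 members without overlap there, beside 22.7% of all tested genes. SMO was at 9.03, 7.96 and 8.36 CPM in Vectors and 9.76, 8.91 and 8.23 in FOXL2WT+FOXO1. The 2 least abundant members were at similar levels in both, GLI1 at 0.829, 0.593 and 0.880 against 0.808, 1.16 and 0.577 CPM and GAS1 at 0.611, 0.395 and 0.240 against 0.538, 0.464 and 0.0962. HHIP was at 116, 122 and 128 CPM in FOXL2WT+FOXO1.

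Ordered by mean CPM, GLI2 was at 26.4 ± 0.991 (SD, n = 3) in FOXL2C134W, 19.0 ± 2.39 in FOXL2WT+FOXO1, 18.9 ± 0.962 in FOXL2C134W+FOXO1, 18.1 ± 1.15 in Vectors and 15.2 ± 0.777 in FOXL2WT. Only the first step down was a DEG. The 3 middle conditions overlapped, and the last step did not overlap but missed the threshold (adjusted p = 0.11 in edgeR). GLI3 followed the order FOXL2C134W (16.8 ± 2.14), Vectors (14.3 ± 1.63), FOXL2WT+FOXO1 (12.6 ± 2.07), FOXL2C134W+FOXO1 and FOXL2WT (11.3 ± 0.530), and no neighbours in it differed beyond their spread. In HHIP, PTCH1, SMO, SUFU, GLI1 and GAS1 no neighbouring conditions were DEGs either.

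How reads were shared among transcripts bears on GLI2. The deposited values list 13 GLI2 transcripts, of which 8 received reads. On the TPM scale, 53.3% of GLI2 came from GLI2-204, a transcript of 315 bases that held at most 9.6 estimated reads in a library. Most reads lay on 2 long coding transcripts of 6799 and 6768 bases, and each of them was at 0 in some libraries. Summed GLI2 TPM was 4.27, 3.48 and 6.96 in FOXL2WT, 13.03, 10.4 and 13.2 in FOXL2C134W, and 15.8, 12.2 and 9.32 in FOXL2WT+FOXO1. It was 11.6, 8.75 and 3.49 in FOXL2C134W+FOXO1 and 11.1, 8.10 and 7.64 in Vectors. FOXL2C134W and FOXL2WT were separated on this scale too, whereas FOXL2C134W overlapped each of the other 3 conditions. With transcript length offsets in DESeq2, the GLI2 log2 fold change was 1.29 in FOXL2C134W vs FOXL2WT (adjusted p = 0.011) and -0.08 in FOXL2C134W vs FOXL2WT+FOXO1 (adjusted p = 0.94). In FOXL2C134W+FOXO1 vs FOXL2C134W it was -0.61 (adjusted p = 0.67), so the fall of GLI2 with FOXO1 did not pass the test in that fit, nor did that of GLI3 (-0.70, adjusted p = 0.062). GLI3 rested mostly on GLI3-201 (8405 bases, 66.3% of its TPM), at 1.56 ± 0.0694 TPM (SD, n = 3) in FOXL2WT, 2.40 ± 0.383 in FOXL2C134W and 1.65 ± 0.0764 in FOXL2C134W+FOXO1.

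Beyond the members, 90 further genes of the pathway were listed by role from general knowledge, of which 89 were in the table and 69 were tested. In FOXL2C134W vs FOXL2WT, 14 of the 69 were DEGs, 11 higher and 3 lower. That is 20.3% of the list beside 11.2% of all genes, with a median log2 fold change of 0.04 beside -0.01. By role, DEGs were 0 of 4 genes of ligand release, 2 of 4 receptors and co-receptors, 3 of 22 genes of the cilium and SMO relay, 4 of 19 genes that phosphorylate GLI or control its turnover and 5 of 20 targets. Among those with the smallest adjusted p, EVC and IQCE, parts of the ciliary complex that relays the SMO signal, rose with log2 fold changes of 0.55 (adjusted p = 0.0038 in edgeR) and 0.46 (adjusted p = 0.0056). Of the 5 targets called, 3 were higher and 2 lower, and the 20 targets had a median log2 fold change of -0.09. The nuclear receptor NR2F2 had 0.24 (adjusted p = 0.0022) and the cell cycle factor FOXM1 had 0.21 (adjusted p = 0.007). The 2 that fell were PTHLH, which encodes a parathyroid hormone-like peptide, with -0.54 (adjusted p = 0.013), and the BMP antagonist GREM1, with -0.16 (adjusted p = 0.045). NR2F2 is also on the list of theca and stroma markers, whose sum was 1633 to 1642 CPM in FOXL2C134W and 1312 to 1452 in FOXL2WT. In Vectors the sum was higher still, at 1752 to 1824 CPM. Most of the sum was COL1A1, at a mean of 1342 CPM in FOXL2C134W and 1148 in FOXL2WT. ACTA2 went the other way, at 24.3 and 27.9 CPM, so the sum does not stand for the list. On that list, 6 of 9 genes exceeded 3 counts in at least 1 library, and LHCGR was at 0 in all 15. The part of these markers in the result was not tested.

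In FOXL2WT vs Vectors, 7 of the 69 were DEGs, 1 higher and 6 lower, or 10.1% of the list beside 6.07% of all genes. The target IGFBP6, a binding protein of insulin-like growth factors, fell by 0.46 on the log2 scale (adjusted p = 0.0011 in edgeR). FOXM1 fell by 0.23 (adjusted p = 0.0063), EVC by 0.45 (adjusted p = 0.024) and the target TIAM1 by 0.32 (adjusted p = 0.033), while the keratin gene KRT17 rose by 0.25 (adjusted p = 0.025). In FOXL2C134W vs Vectors, 16 of the 69 were DEGs, 10 higher and 6 lower, or 23.2% of the list beside 14.7% of all genes. IGFBP6 again led with a log2 fold change of -0.54 (adjusted p = 9e-05), followed by NR2F2 with 0.32 (adjusted p = 0.00013) and the ubiquitin ligase SMURF2 with 0.23 (adjusted p = 0.0016). The targets SPP1, which encodes osteopontin, and MYCN had -1.961 (adjusted p = 0.003) and -0.92 (adjusted p = 0.0037), at mean levels of at most 2.57 CPM. Both comparisons use the same Vectors libraries, so a gene named in both is not counted as independent evidence.

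**Figure D5:**
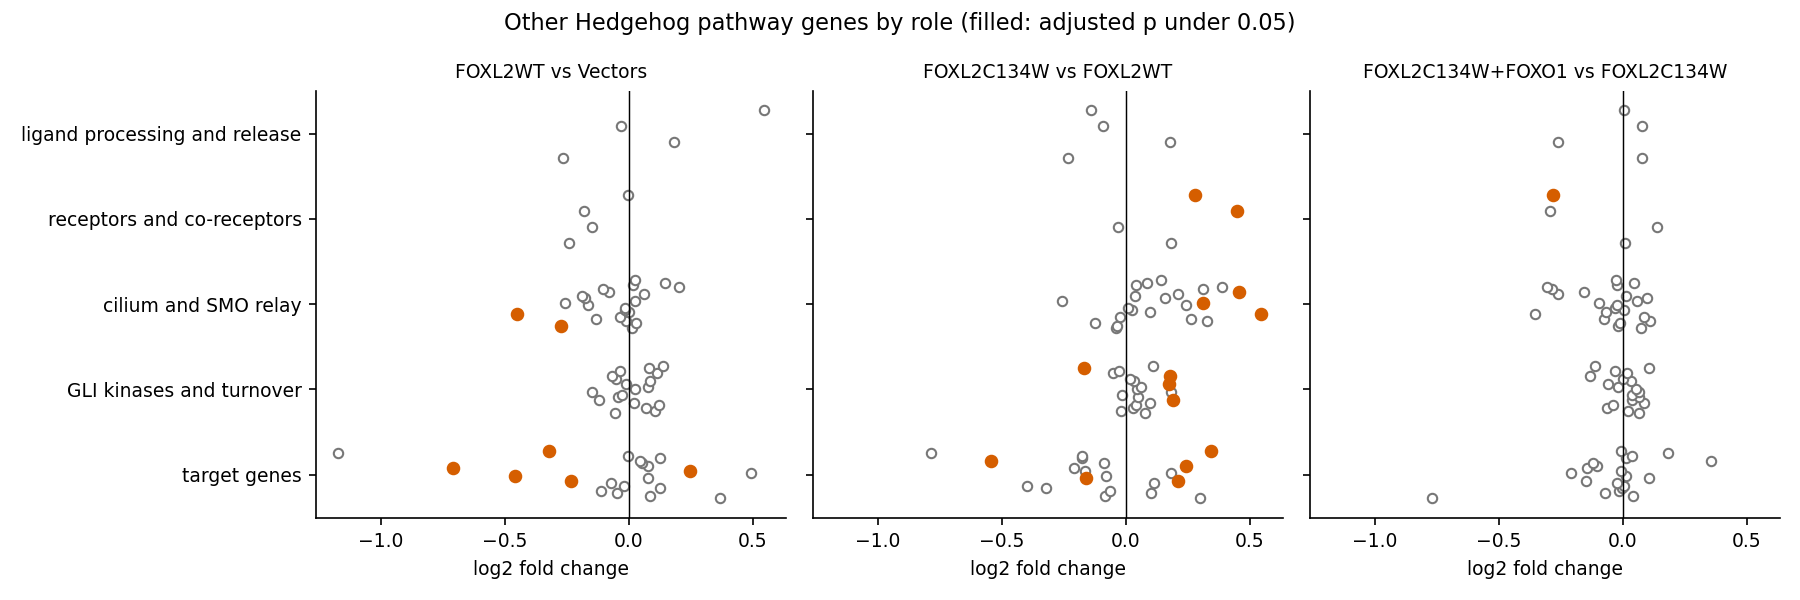
Log2 fold change of the 69 tested pathway genes beyond the members, by role, in 3 comparisons. Filled points are DEGs at an adjusted p under 0.05 over all 13868 genes. DEGs number 7 in FOXL2WT vs Vectors, 14 in FOXL2C134W vs FOXL2WT and 1 in FOXL2C134W+FOXO1 vs FOXL2C134W.

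With FOXO1, 0 to 9 of the 69 were DEGs in the remaining comparisons. In FOXL2C134W+FOXO1 vs FOXL2C134W there was 1, or 1.45% of the list beside 0.714% of all genes. It was the ubiquitin ligase MGRN1, which fell by 0.28 on the log2 scale (adjusted p = 0.036 in edgeR), and MGRN1 had been 1 of the 14 in FOXL2C134W vs FOXL2WT (0.28, adjusted p = 0.007). In the difference between the 2 effects of FOXO1, 1 was a DEG, FOXM1 (-0.29, adjusted p = 0.041), beside 1.38% of all genes. FOXL2WT+FOXO1 vs FOXL2WT and FOXL2C134W+FOXO1 vs FOXL2WT+FOXO1 each gave 0 in edgeR, beside 0.0505% and 0.144% of all genes. FOXL2C134W+FOXO1 vs FOXL2WT gave 2 (2.90%, beside 1.69% of all genes), the intraflagellar transport gene IFT80 (0.26, adjusted p = 0.035) and the cullin CUL3 (0.23, adjusted p = 0.039). FOXL2C134W vs FOXL2WT+FOXO1 gave 6 (8.70%, beside 3.87% of all genes), among them NR2F2 (0.20, adjusted p = 0.021), PTHLH (-0.59, adjusted p = 0.021), the ciliary kinesin KIF7 (0.55, adjusted p = 0.033) and BMP4 (-0.15, adjusted p = 0.041). FOXL2WT+FOXO1 vs Vectors gave 2 (2.90%, beside 3.78% of all genes), IGFBP6 (-0.35, adjusted p = 0.011) and BMP4 (0.16, adjusted p = 0.034). FOXL2C134W+FOXO1 vs Vectors gave 9 (13.04%, beside 9.33% of all genes), 3 higher and 6 lower, led by IGFBP6 (-0.53, adjusted p = 0.00017), SMURF2 (0.28, adjusted p = 0.00049), MYCN (-1.06, adjusted p = 0.002), NR2F2 (0.22, adjusted p = 0.0051) and ARRB1 (-0.33, adjusted p = 0.007), an arrestin that binds activated receptors.

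Across the 15 libraries, GLI2 and GLI3 had a Pearson correlation of log2-CPM of 0.65 and SUFU and GLI3 one of 0.66, as descriptions of libraries that share conditions. Among the genes closest to GLI2 by this measure, out of 13867, were CCNK (0.93) and HCFC1 (0.93). Those closest to PTCH1 were RPS26P6 (0.77), a ribosomal protein pseudogene, WDR92 (0.77) and RASGRF1 (0.75).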

How the data were processed

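RNA of 15 HGrC1 libraries was prepared as stranded mRNA libraries and sequenced by the authors, who quantified reads on hg38 transcripts with salmon 1.1.0 and summed them per gene with tximport. The deposited gene table holds estimated counts, rounded to whole numbers, and the authors' transcript files hold TPM and estimated counts for 227063 transcripts. The annotation release was not given in the sources used here, and 98.4% of transcripts were in GENCODE 44, which gave coordinates.

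Counts were scaled by TMM and tested with edgeR 4.0.16 (quasi-likelihood, filterByExpr, all 15 libraries, no covariates) in R 4.3.3, with Benjamini-Hochberg adjustment over 13868 genes at 0.05. The steps were tested on simulated data. The study tested pairs of conditions with DESeq2. Here DESeq2 1.42.0 was an alternative, with 9 others and 15 fits that left out 1 library each. Intervals named 95% are 1.96 SE to either side, which is somewhat narrower than the 95% range of the edgeR test. They cover these samples only. Totals of 14962245 to 25339094 counts set the precision.

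The 8 members and the pathway and marker lists were chosen with earlier results of these data known. The study had already named GLI2 among its DEGs between the forms of FOXL2. It also listed GLI2 among genes shared with patient tumor data and among FOXL2 targets by published binding data. Those data were not used here. Named are all members, with full statistics for FOXL2C134W vs FOXL2WT and for DEGs elsewhere, the 5 pathway genes with the smallest adjusted p per comparison among DEGs, and the 3 genes closest to GLI2 and to PTCH1. Some genes that this rule names are not reported here. Other values of members, MGRN1, PTHLH and GREM1 in FOXL2C134W vs FOXL2WT, and the ligands were added after values were seen. Strand and sequence sharing between plasmid and cell transcripts were not separated.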

Additional observations from a re-analysis of the deposited data

Results flagged for a closer look

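GLI2 and GLI3 stood out because the same addition, FOXO1, went with different changes beside the 2 forms of FOXL2. The FOXL2C134W and FOXL2WT libraries enter here again, so this result is not independent of FOXL2C134W vs FOXL2WT. The effect of FOXO1 in FOXL2C134W minus that in FOXL2WT was -0.79 on the log2 scale for GLI2 (adjusted p = 0.0053 in edgeR), with all 3 FOXL2C134W+FOXO1 libraries below all 3 FOXL2C134W libraries and all 3 FOXL2WT+FOXO1 libraries above all 3 FOXL2WT libraries. For GLI3 it was -0.70 (adjusted p = 0.041 in edgeR), with all 3 libraries lower beside FOXL2C134W and overlapping libraries beside FOXL2WT. Of all tested genes, 14.0% did not overlap when FOXO1 was added beside FOXL2C134W and 14.5% beside FOXL2WT. FOXO1 RNA was at 43.2 ± 4.06 CPM (SD, n = 3) in FOXL2C134W+FOXO1 and 117 ± 14.5 in FOXL2WT+FOXO1, and SMAD3 RNA was at 392 ± 16.9 and 969 ± 10.8 CPM. The part of these amounts in the result was not tested.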

How the results depend on the processing

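Counts of members called are given for the settings that moved them. With transcript length offsets in DESeq2, the count was 1 in FOXL2C134W vs FOXL2WT, 0 in FOXL2C134W vs Vectors, 1 in FOXL2WT+FOXO1 vs FOXL2WT, 0 in FOXL2C134W+FOXO1 vs FOXL2C134W, 0 in FOXL2C134W vs FOXL2WT+FOXO1 and 1 in the difference between the effects of FOXO1. Over all 13868 genes the same fit called 759, 972, 69, 61, 329 and 120 in that order. The average GLI2 transcript length moved between libraries in that fit, where the log2 fold change of PTCH1 in FOXL2C134W vs FOXL2WT turned to 0.78 (adjusted p = 0.42) and that of GLI2 in FOXL2C134W vs FOXL2WT+FOXO1 to -0.081. DESeq2 without these offsets gave 1 in FOXL2C134W+FOXO1 vs FOXL2WT and 2 in FOXL2C134W vs FOXL2WT+FOXO1, beside 610 and 864 of 13868 genes. Keeping genes with at least 1 count gave 1 in FOXL2WT vs Vectors, 1 in FOXL2C134W+FOXO1 vs FOXL2WT, 2 in FOXL2C134W+FOXO1 vs Vectors and 2 in FOXL2C134W vs FOXL2WT+FOXO1. Beside them stood 1345, 1046, 1586 and 1323 of 22745 genes. Requiring at least 10 counts in every library gave 1 in FOXL2C134W+FOXO1 vs Vectors and 2 in FOXL2C134W vs FOXL2WT+FOXO1. This was beside 1382 and 657 of 12491 genes, and GAS1 was then not tested. Fits of only the groups compared gave 1 in FOXL2WT vs Vectors, FOXL2C134W vs Vectors, FOXL2C134W+FOXO1 vs FOXL2C134W and FOXL2C134W+FOXO1 vs FOXL2WT. These fits called 1690 of 13434, 1883 of 13539, 32 of 13435 and 518 of 13379 genes. A gene length offset gave 1 in FOXL2C134W vs Vectors and 2 in FOXL2C134W+FOXO1 vs Vectors, beside 2239 and 1716 of 13868 genes. A GC content offset gave 1 in FOXL2C134W+FOXO1 vs FOXL2WT and 2 in FOXL2C134W vs FOXL2WT+FOXO1, beside 650 and 954. The cause of these shifts was not tested.

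Over the fits that left out 1 library, the count ranged from 1 to 3 in FOXL2C134W vs Vectors (3 without FOXL2C134W replicate A), 0 to 2 in FOXL2C134W+FOXO1 vs FOXL2C134W, 0 to 1 in FOXL2WT+FOXO1 vs Vectors, 1 to 2 in FOXL2C134W vs FOXL2WT+FOXO1 and 1 to 2 in the difference between the effects of FOXO1. Counts over all genes were, in that order, 1275 to 2126, 5 to 355, 215 to 412, 77 to 1252 and 45 to 423. The log2 fold change in FOXL2C134W vs FOXL2WT ranged from -0.36 to 0.21 for GAS1 and from -0.39 to 0.14 for GLI1.

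Replicate letters did not pair the samples: deviations from condition means correlated by -0.16 to 0.17 over 30 pairs with the same letter and -0.12 to 0.12 over 60 pairs with different letters. With a replicate block, FOXL2C134W vs FOXL2WT gave 2 members, beside 1562 of 13868 genes. GLI2 then had a log2 fold change of 0.79 and GLI3 one of 0.57. The block moved no other count of members, and with the gene length offset it gave 2 in FOXL2C134W+FOXO1 vs Vectors, beside 1693 of 13868 genes.

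Over all genes, the count of DEGs over the 10 alternatives was 759 to 2041 in FOXL2C134W vs FOXL2WT, where the main count was 1560, and 32 to 463 in FOXL2C134W+FOXO1 vs FOXL2C134W, where it was 99. For FOXL2WT+FOXO1 vs FOXL2WT it was 7 to 260, where it was 7, and for the difference between the effects of FOXO1 120 to 551, where it was 192. Over the fits that left out 1 library, these counts were 772 to 2120 (772 without FOXL2WT replicate B, 782 and 866 without FOXL2C134W replicate B or C), 5 to 355, 2 to 7 and 45 to 423 in the same order, the last within 1.5 times of its count only without replicate A or C of FOXL2WT or of FOXL2WT+FOXO1, so the shares of all genes set beside the members rest on single libraries too. Depth limits GLI1 and GAS1 most, at no more than 29 counts per library.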
